A study of Mus musculus with 42 samples.

Results

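Hearts from wild-type and *Tug1*-/- mice were compared across all genes of the deposited expression table. *Tug1* encodes a long noncoding RNA that is made in most tissues. The table lists 26653 genes for heart, and the heart comparison draws on 6 of the 42 samples of the series, 3 wild-type and 3 *Tug1*-/-. The wild-type mice carried 2 normal *Tug1* alleles. The homozygous knockout mice carried a lacZ reporter in the place of *Tug1* on both alleles, with the promoter of the locus left in position, so that any product of the deleted stretch, RNA or peptide, and any regulatory DNA inside it were lost together. All 6 samples were from males of the strain Tug1_tm1.1Vlcg on a C57BL/6J background (N3, no Neo cassette), and the age of the mice is not given in the labels. Polyadenylated RNA had been extracted from snap-frozen, pulverized tissue, and the part of the heart taken is not given. The authors' values are FPKM, fragments per kilobase of transcript scaled to the number of mapped fragments, with 1 combined value per genotype.

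Because the 3 samples of a genotype had been merged into that value, no replicate value, standard deviation, count or depth stands behind any number here, and no difference was tested. Each change is given as log2((knockout + 0.1)/(wild-type + 0.1)) in FPKM, a scale that understates the change of low genes. A number in parentheses with no unit is such a log2 change, and a change given as times lower also has 0.1 FPKM added to both values. A gene counts as measured with a mean of both genotypes of at least 1 FPKM, and a measured gene is called higher or lower where it changed by more than 1.5 times. In RNA from a whole organ, fewer cells of a type and less RNA per cell cannot be told apart. All gene lists below were chosen with earlier results of these data known. Their calls set beside the share of all genes are therefore a description and no test.

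The heart is built mainly from cardiomyocytes, which contract through sarcomeres of cardiac myosin, actin and troponin and store calcium in a sarcoplasmic reticulum. Around them lie endothelial cells, fibroblasts, smooth muscle, macrophages and nerve fibres. Atrial and ventricular cardiomyocytes differ in their light chains and secreted peptides, and working heart muscle burns mainly fatty acids. Steroid hormones such as glucocorticoids, the circadian clock and mechanical or adrenergic stimulation each drive known sets of genes in it.

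The deleted gene was checked first. *Tug1* (ENSMUSG00000056579.11) had 11.2 FPKM in wild-type hearts and 0.124 FPKM in *Tug1*-/- hearts, which is 50.5 times lower. The lacZ reporter was listed at 0 in wild-type and at 8.18 FPKM in *Tug1*-/- hearts, so it came to about the level that *Tug1* itself had in wild-type hearts. By the design of the allele the reporter sits behind the promoter of the locus on the minus strand of chromosome 11. The 30 bases before the *Tug1* start in RefSeq (build GRCm38.p6, chr11:3648815-3648844, minus strand) are shown. GENCODE vM21 sets the start of *Tug1* further upstream, at 3649673 on the same chromosome, so in that annotation these bases are transcribed. The label promoter below therefore holds for the RefSeq start alone, and the bases do not place the reporter.

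Tug1 promoter: tcctgctctggcatccagctcttggggcgc

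*Morc2a*, which is read in the opposite direction from the same promoter region and encodes a chromatin-silencing ATPase, had 7.54 FPKM in wild-type hearts and 5.41 FPKM in *Tug1*-/- hearts, a log2 change of −0.47 that stayed within 1.5 times. The kit named in the labels does not keep the strand, and in GENCODE vM21 the 2 genes overlap at their starts by 0.482 kb. The authors' values place *Morc2a* from 3649494 to 3690477, apart from that annotation. Whether reads near the starts were given to the other gene was not tested. Of the 6 measured MORC and HUSH silencing genes none was called, *Morc2a* had the lowest log2 change and the highest was 0.30.

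Of the 26653 genes, 12695 were measured in heart. Of these, 111 (0.874%) were called higher and 183 (1.44%) were called lower in *Tug1*-/- hearts. The median log2 change over the measured genes was 0.028, and the central 95% of them lay between −0.46 and 0.37. A log2 change above 0, of whatever size, was found in 58.6% of the measured genes. The lower calls sat mainly among weakly expressed genes. Between 1 and 5 FPKM there were 43 higher and 132 lower calls, while at a mean of at least 5 FPKM there were 68 higher and 51 lower calls. The share of higher calls was therefore 37.8% over all measured genes and 57.1% over the stronger ones. Of the called genes, 53 lower ones had under 1 FPKM in *Tug1*-/- and 17 higher ones had under 1 FPKM in wild-type hearts, so these genes passed the filter through a single genotype, where they were high.

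**Figure D1:**
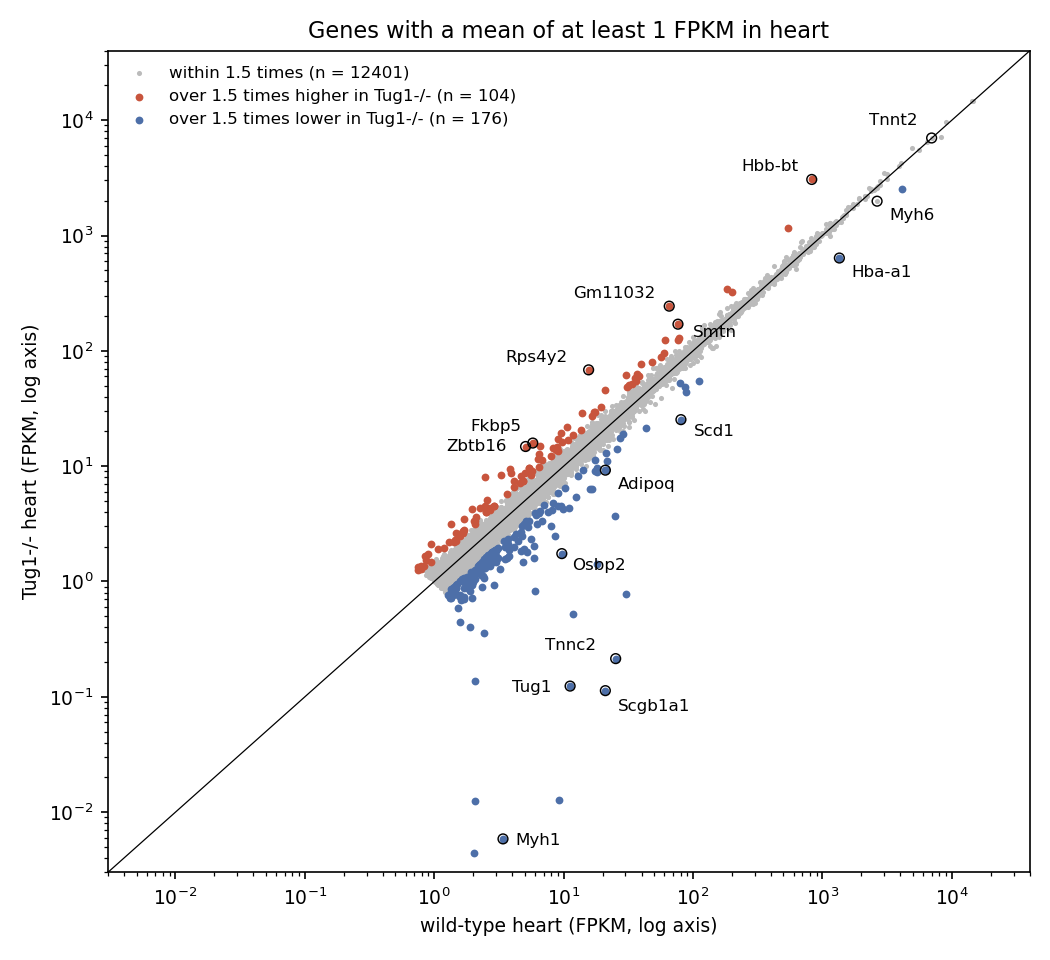
Each point is a gene with a mean of at least 1 FPKM, with its wild-type value on the x axis and its *Tug1*-/- value on the y axis, both in FPKM on log axes, and the line marks equal values. Genes over 1.5 times higher (red) or lower (blue) in *Tug1*-/- hearts lie apart from the band along the line, with fast skeletal muscle genes such as *Tnnc2* and *Myh1* far below it. The 14 called genes listed at 0 in a genotype cannot be drawn on log axes.

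The 12 largest falls at a mean of at least 5 FPKM included 4 predicted genes listed at 0 in *Tug1*-/- hearts, *Gm21836* (871 FPKM in wild-type), *Gm17604* (523), *Gm17364* (204) and *Gm17590* (15.9). An exact 0 in such a table can be a failed estimate, so no fold is given for them. The other 8 were *Tug1*, its neighbor *Osbp2*, the airway gene *Scgb1a1* and the fast skeletal muscle genes *Tnnc2*, *Tnnt3*, *Atp2a1*, *Mylpf* and *Tnni2*. The 12 largest rises likewise included 5 genes listed at 0 in wild-type hearts. These were the mitochondrial genes *mt-Nd1*, *mt-Cytb*, *mt-Nd5* and *mt-Nd6*, which had between 3825 and 10124 FPKM in *Tug1*-/- hearts and a status of too little data, and the predicted gene *Gm26741*. The mitochondrial *mt-Nd2* had 8181 FPKM in wild-type hearts and 7108 FPKM in *Tug1*-/- hearts, while *mt-Co1*, *mt-Co2*, *mt-Co3*, *mt-Nd4* and *mt-Atp6* were listed at 0 in both genotypes, although all of them are abundant in heart muscle. The values of mitochondrially encoded genes in this table therefore say nothing about their level (*mt-Nd2*, *mt-Nd4*, *mt-Co1*, *mt-Co2*, *mt-Co3* and *mt-Atp6* were picked after their values were seen).

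The other 7 of the largest rises were *Rps4y2*, *Gm11032*, *Hbb-bt*, *Fam107a*, *Zbtb16*, *Fkbp5* and *Arrdc2*. *Rps4y2* had 15.6 FPKM in wild-type hearts and 68.4 FPKM in *Tug1*-/- hearts. By its name it is a copy of the gene of ribosomal protein S4, and reads of near-identical copies can be split between them, so its value is uncertain. *Fam107a*, which encodes an actin-binding protein induced by glucocorticoids, had 2.47 FPKM in wild-type hearts and 8.09 FPKM in *Tug1*-/- hearts, a log2 change of 1.67. *Arrdc2*, an arrestin-domain gene, had 3.28 FPKM in wild-type hearts and 8.34 FPKM in *Tug1*-/- hearts, a log2 change of 1.32.

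The labelled tissue was borne out by its markers in both genotypes. *Tnnt2*, cardiac troponin T, had 6978 FPKM in wild-type hearts and 7008 FPKM in *Tug1*-/- hearts, and the log2 change was 0.0063. *Nppa*, the atrial natriuretic peptide, had 691 FPKM in wild-type hearts and 888 FPKM in *Tug1*-/- hearts (0.36). *Myh6*, the adult cardiac myosin heavy chain of the mouse, had 2644 FPKM in wild-type hearts and 1985 FPKM in *Tug1*-/- hearts, and its log2 change of −0.41 was the lowest of the cardiomyocyte list without reaching 1.5 times. All 22 cardiomyocyte markers were measured and none was called in either direction. Their median log2 change was 0.043, beside 0.028 over all measured genes, and they ran from −0.41 to 0.22. The list included the sarcomere gene *Actc1* at 4908 and 5724 FPKM in wild-type hearts and *Tug1*-/- hearts, the ryanodine receptor *Ryr2*, which releases calcium, at 105 and 122 FPKM, and the calcium pump *Atp2a2* at 3011 and 3489 FPKM. The oxygen store myoglobin (*Mb*) was the highest of them with 14533 and 14809.6 FPKM.

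Of 10 atrial genes 1 was called higher, beside 0.874% of all measured genes, and the other 9 did not pass 1.5 times. All 10 had log2 changes above 0, beside 58.6% of all measured genes, with a median of 0.21. The called gene was *Bmp10*, a bone morphogenetic protein secreted by atrial muscle, with 35.5 FPKM in wild-type hearts and 57.7 FPKM in *Tug1*-/- hearts (0.70). The atrial light chains *Myl4* (0.26) and *Myl7* (0.23) and the peptide-amidating enzyme *Pam* (0.26) stayed within 1.5 times, as did sarcolipin (*Sln*, 0.055). Of 7 ventricular genes 1 was called lower and none higher, beside 1.44% and 0.874% of all measured genes. *Irx5*, a homeobox gene of the ventricular wall, had 2.91 FPKM in wild-type hearts and 1.82 FPKM in *Tug1*-/- hearts (−0.65). *Irx5* was no longer called when 1 FPKM in place of 0.1 was added. Its relatives *Irx3* and *Irx4* had log2 changes of −0.42 and −0.12, and the ventricular light chain *Myl2* had 14249 FPKM in wild-type hearts and 14716 FPKM in *Tug1*-/- hearts. The share of atrium in each sample is not recorded in the table, and its part in these values was not tested.

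Of 13 measured genes known to rise in loaded or failing heart muscle 1 was called higher and none lower, beside 0.874% and 1.44% of all measured genes. This was *Ctgf*, a matrix-associated growth factor, with 47.9 FPKM in wild-type hearts and 79.6 FPKM in *Tug1*-/- hearts (0.73). The natriuretic peptide *Nppb* had a log2 change of 0.36, the ankyrin-repeat gene *Ankrd1* one of 0.17, the fetal myosin *Myh7* one of −0.56 and skeletal actin *Acta1* one of −0.43, and the median of the list was 0.093. Among 21 measured ion channel and conduction genes 1 was called higher and none lower, beside 0.874% and 1.44% of all measured genes. This was the voltage-gated potassium channel *Kcna5*, with 9.12 FPKM in wild-type hearts and 17.3 FPKM in *Tug1*-/- hearts (0.92). Other channels stayed within 1.5 times, such as the inward rectifier *Kcnj2* (−0.58) and the gap junction gene *Gja1* (−0.20). *Rrad*, a GTPase that restrains calcium channels and which was picked after its values were seen, was lower with 112 FPKM in wild-type hearts and 55.1 FPKM in *Tug1*-/- hearts (−1.02).

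The gene lists for fuel use held 1 gene called lower and none called higher, beside 1.44% and 0.874% of all measured genes. All 25 genes of fatty acid uptake and oxidation were measured, with a median of 0.037. The fatty acid carrier *Fabp3* had 2649 FPKM in wild-type hearts and 2638 FPKM in *Tug1*-/- hearts, and the oxidation enzymes *Hadhb* and *Acadm* had log2 changes of 0.037 and 0.0026. The only call among them was *Angptl4*, an inhibitor of lipoprotein lipase, with 6.8 FPKM in wild-type hearts and 3.36 FPKM in *Tug1*-/- hearts (−1.0). None of 18 genes of glucose use was called. Their log2 changes lay from 0.022 to 0.25 with a median of 0.15, so that all 18 were above 0, as were 58.6% of all measured genes.

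Several of the largest falls were in markers of cells other than heart muscle. Of 15 fast skeletal muscle genes 12 were measured and 10 of these were called lower, none higher, beside 1.44% and 0.874% of all measured genes. Of the 12 measured genes 7 had under 1 FPKM in *Tug1*-/- hearts and passed the filter through wild-type alone, so they had to differ, and the count and any median over the 12 rest in part on that. The 3 members under the filter, *Myh8*, *Actn3* and *Myoz1*, had smaller values in *Tug1*-/- hearts as well. Fast troponin C (*Tnnc2*) had 25.2 FPKM in wild-type hearts and 0.214 FPKM in *Tug1*-/- hearts, which is 80.6 times lower. Fast troponin T (*Tnnt3*) had 30.3 FPKM in wild-type hearts and 0.786 FPKM in *Tug1*-/- hearts, fast troponin I (*Tnni2*) 24.8 and 3.7 FPKM, and the fast light chain *Mylpf* 18.2 and 1.43 FPKM. The fast myosin heavy chains *Myh1*, *Myh2* and *Myh4* had 3.4, 2.08 and 2.03 FPKM in wild-type hearts and at most 0.0125 FPKM in *Tug1*-/- hearts. The calcium pump of fast fibres, *Atp2a1*, had 11.8 FPKM in wild-type hearts and 0.523 FPKM in *Tug1*-/- hearts, and the calcium buffer *Pvalb* 5.97 and 0.821 FPKM. The members left within 1.5 times were *Myl1*, with 102 FPKM in wild-type hearts and 89.8 FPKM in *Tug1*-/- hearts, and *Mybpc2* (−0.26). *Casq1* was called lower (−0.67), a call lost with 1 FPKM added. The summed level of the list was 242 FPKM in wild-type hearts and 107 FPKM in *Tug1*-/- hearts.

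Of the 9 genes of the lung list only *Scgb1a1* was measured. It was called lower and had passed the filter through wild-type alone, so it had to differ. *Scgb1a1*, the secretoglobin of club cells in the airway lining, had 21 FPKM in wild-type hearts and 0.113 FPKM in *Tug1*-/- hearts, which is 99 times lower. *Scgb3a2*, another secretoglobin, had 1.24 FPKM in wild-type hearts and was listed at 0 in *Tug1*-/- hearts. *Bpifa1*, a secreted protein of the upper airways and nose picked after its values were seen, had 9.2 FPKM in wild-type hearts and 0.0127 FPKM in *Tug1*-/- hearts. *Scgb3a1*, picked likewise, had 1.9 and 0.404 FPKM. The markers of the gas-exchanging part of the lung were at or near 0 in both genotypes: surfactant protein C (*Sftpc*) had 0.23 FPKM in wild-type hearts and was listed at 0 in *Tug1*-/- hearts, *Ager* had 0.238 and 0.22 FPKM, and *Sftpa1*, *Sftpb*, *Sftpd*, *Cldn18* and *Slc34a2* were at or under 0.0411 FPKM. All members of the lung list are given here whatever their level. The summed level of the lung list was 22.8 FPKM in wild-type hearts and 0.359 FPKM in *Tug1*-/- hearts. Genes of liver and exocrine pancreas were near 0 in both genotypes, with a summed level of 2.97 and 2.23 FPKM.

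Of 14 adipocyte genes 11 were measured, 8 were called lower and none higher, beside 1.44% and 0.874% of all measured genes. Of the 11, 1 passed the filter through wild-type alone, and the median log2 change was −0.89. The adipokine adiponectin (*Adipoq*) had 21 FPKM in wild-type hearts and 9.23 FPKM in *Tug1*-/- hearts (−1.18). *Plin1*, which coats fat droplets, had 9.81 and 4.23 FPKM, the complement protease adipsin (*Cfd*) 86.5 and 48.6 FPKM, and the hormone resistin (*Retn*) 5.59 and 2.31 FPKM. *Ucp1*, the uncoupling protein of brown fat, had 18.1 FPKM in wild-type hearts and 8.83 FPKM in *Tug1*-/- hearts (−1.03), while *Cidea*, a lipid droplet gene of brown fat, had 35 and 30.3 FPKM and was not called. *Adrb3* was called (−0.79), a call lost with 1 FPKM added. The summed level of the list was 281 FPKM in wild-type hearts and 174 FPKM in *Tug1*-/- hearts. The lipid synthesis genes *Scd1*, a fatty acid desaturase, and *Fasn*, fatty acid synthase, picked after their values were seen, were lower too, with 80.6 and 25.3 FPKM and 25.7 and 14 FPKM. So was *Car3*, a carbonic anhydrase of fat and muscle picked likewise, with 88 and 44 FPKM.

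The table holds 10 genes of the T and B lymphocyte list, of which 6 were measured and 4 were called lower, beside 1.44% of all measured genes. The called members included *Cd79a* (9.51 and 4.5 FPKM) and *Cd79b* (12.4 and 5.38 FPKM), the signalling chains of the B cell receptor, and the B cell surface protein *Ms4a1* (4.94 and 1.91 FPKM), with wild-type given before *Tug1*-/-. The measured T cell genes *Cd3g* and *Lck* had log2 changes of −0.23 and −0.15. The members under the filter, the T cell genes *Cd3e*, *Cd4*, *Cd8a* and *Cd8b1*, had log2 changes of −0.053, −0.28, −0.84 and −0.90. *Pax5*, the B lineage transcription factor, the coreceptor *Cd22* and the light chain constant gene *Iglc2*, all picked after their values were seen, had log2 changes of −1.11, −1.11 and −1.33.

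The skeletal muscle, airway, adipocyte and lymphocyte lists together held 23 of the 183 genes called lower and none of those called higher. With 1 combined value per genotype the table does not show in how many of the 3 wild-type samples these genes were high, and the source of the signal was not tested. None of the 10 endothelial genes was called (median 0.033), with *Pecam1* at 90 and 90.2 FPKM. None of the 10 fibroblast genes was called (median −0.10), nor any of the 8 mesothelial and epicardial genes (median −0.18). Of 8 smooth muscle genes 1 was called lower, calponin (*Cnn1*, −0.61), beside 1.44% of all measured genes, and the median was −0.33. Of 5 measured nerve genes 1 was called lower, *S100b* (−0.70), beside 1.44% of all measured genes. Both of these calls were lost with 1 FPKM added.

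**Figure D2:**
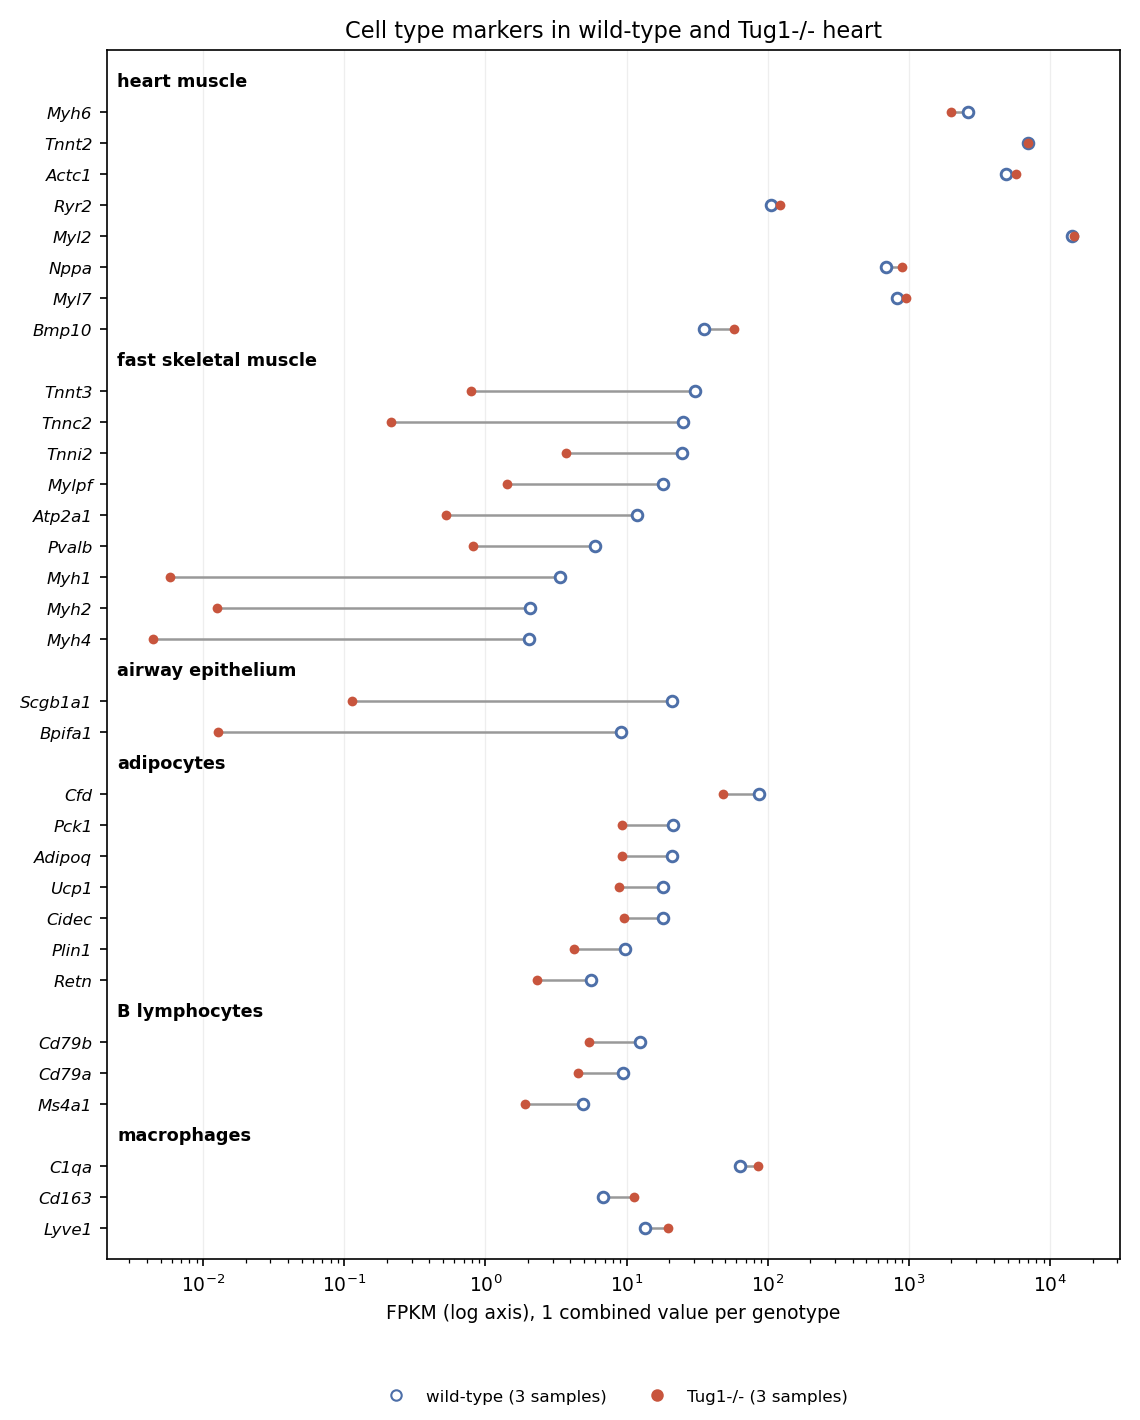
FPKM on a log axis of marker genes in wild-type (open blue) and *Tug1*-/- (red) hearts, 1 combined value per genotype from 3 samples each, joined by a line. The heart muscle genes drawn lie within 1.5 times except *Bmp10*, which was called higher. The fast skeletal muscle and airway genes lie far to the left in *Tug1*-/- hearts and the adipocyte and B lymphocyte genes moderately to the left.

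Of 17 measured macrophage genes 1 was called higher, beside 0.874% of all measured genes, and 16 did not pass 1.5 times. The log2 change was above 0 in 15 of the 17, beside 58.6% of all measured genes, with a median of 0.22. The called gene was *Cd163*, the hemoglobin scavenger receptor of resident macrophages, with 6.78 FPKM in wild-type hearts and 11.3 FPKM in *Tug1*-/- hearts (0.72). The complement genes *C1qa*, *C1qb* and *C1qc* had log2 changes of 0.43, 0.43 and 0.39, and *Lyve1* one of 0.53. The summed level of the list was 322 FPKM in wild-type hearts and 406 FPKM in *Tug1*-/- hearts.

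Of 9 measured red cell genes 2 were called higher and 2 lower, beside 0.874% and 1.44% of all measured genes, and all 4 calls were globins. The log2 change was below 0 in 7 of the 9, and the median was −0.30. The adult alpha globins *Hba-a1* and *Hba-a2* are near-identical copies, as are the beta globins *Hbb-bs* and *Hbb-bt*. *Hba-a1* had 1351 FPKM in wild-type hearts and 638 FPKM in *Tug1*-/- hearts, while *Hba-a2* had 542 FPKM in wild-type hearts and 1171 FPKM in *Tug1*-/- hearts. *Hbb-bs* had 4113 FPKM in wild-type hearts and 2528 FPKM in *Tug1*-/- hearts, while *Hbb-bt* had 827 FPKM in wild-type hearts and 3062 FPKM in *Tug1*-/- hearts. Within each pair the copies moved in opposite directions. Summed over the pair, alpha globin came to 1893 and 1809 FPKM, a log2 change of −0.066, and beta globin to 4939 and 5591 FPKM, a log2 change of 0.18. The separate values are uncertain, since reads can be split between copies, and the sums were within 1.5 times. *Alas2*, which starts heme synthesis in red cell precursors, had 629.6 FPKM in wild-type hearts and 512 FPKM in *Tug1*-/- hearts (−0.30).

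Glucocorticoid hormone acts through a nuclear receptor that binds DNA at paired half-sites. Of 16 genes known to be induced by glucocorticoids 15 were measured, and 8 were called higher and 1 lower, beside 0.874% and 1.44% of all measured genes. The log2 change was above 0 in 14 of the 15, beside 58.6% of all measured genes, and the median was 0.63, beside 0.028. Like the other lists, this list was drawn up with earlier results of these data known. *Fkbp5*, a co-chaperone that restrains the receptor, had 5.77 FPKM in wild-type hearts and 15.9 FPKM in *Tug1*-/- hearts (1.44). *Zbtb16*, a zinc finger transcription factor, had 5.08 FPKM in wild-type hearts and 14.8 FPKM in *Tug1*-/- hearts (1.53). The kinase gene *Map3k6* had 3.87 FPKM in wild-type hearts and 9.39 FPKM in *Tug1*-/- hearts (1.26).

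The other higher calls of the list were smaller on the log2 scale. The metallothioneins *Mt1* and *Mt2*, which bind zinc and copper, had 199 and 324 FPKM (0.70) and 30.4 and 61.1 FPKM (1.01). *Tsc22d3*, a leucine zipper protein, had 78.5 FPKM in wild-type hearts and 130.5 FPKM in *Tug1*-/- hearts (0.73). The cell cycle inhibitor *Cdkn1a* had 8.3 and 14.2 FPKM (0.77), and the kinase *Sgk1* had 33.7 and 52.1 FPKM (0.63). *Per1*, a clock gene that the hormone also induces, came close to the limit with 18.5 FPKM in wild-type hearts and 27.6 FPKM in *Tug1*-/- hearts (0.57). Within 1.5 times were also *Pdk4* (0.43), *Errfi1* (0.38), *Klf9* (0.37) and *Sult1a1* (0.30). *Angptl4*, named above, is the 1 member called lower. *Ddit4*, an inhibitor of mTOR signalling picked after its values were seen, was higher with 21 FPKM in wild-type hearts and 45.3 FPKM in *Tug1*-/- hearts (1.1). *Cish*, a cytokine signalling inhibitor picked likewise, had 10.6 FPKM in wild-type hearts and 21.9 FPKM in *Tug1*-/- hearts (1.03).

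The promoters of these genes were searched because 8 of them were called in 1 direction. RefSeq windows from 250 bases before to 50 bases after a start were read for 14 of the 16 genes and for 27025 genes in all. The palindromic receptor element, searched as GNACA and TGTNC with 3 bases of any kind between them, reads the same on both strands. It was in a window of 3 of the 14 genes (*Sgk1*, *Map3k6* and *Mt1*) and in 0.537% of all genes. Windows of the other 11 genes, *Fkbp5* and *Tsc22d3* among them, do not hold these letters, and *Zbtb16* had no window. The 3 matches are shown in the direction of the gene, with the element in capitals, on build GRCm38.p6: *Sgk1* at chr10:21993694-21993722 (plus strand, 188 to 176 bases before a start), *Map3k6* at chr4:133240629-133240657 (plus strand, 181 to 169 bases before the start) and *Mt1* at chr8:94178987-94179015 (plus strand, 94 to 82 bases before the start).
Sgk1: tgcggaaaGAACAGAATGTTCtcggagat
Map3k6: gaatagggGCACAGGCTGTTCcggaagtg
Mt1: cactatagGGACATGATGTTCcacacgtc
A match is a description of the letters and does not show that the receptor binds there. The *Sgk1* match was found in 1 of the 6 windows of that gene. Genes with more windows have more places for a match, which the share of all genes does not take into account.

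The metal response element, TGCACNC or TGCGCNC on either strand, is the known site of zinc-dependent control in metallothionein genes. It occurred in windows of *Mt1* and *Mt2* but also in 28.2% of all genes, so its presence alone does not set them apart. Both genes held several matches, and the number of matches was not compared with that of other genes. A copy from each is shown with the element in capitals, *Mt1* at chr8:94179055-94179083 (plus strand, 23 to 17 bases before the start) and *Mt2* at chr8:94172384-94172412 (plus strand, 223 to 217 bases before the start).
Mt1: cggtcccgctgTGCACACtggcgctccag
Mt2: agcatcgcctcTGCACCCggcccctcggg

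Core clock genes were called in both directions. The clock runs on the activators *Arntl* and *Clock*, which switch on the *Per* and *Cry* repressors through E-boxes. Of 11 measured core genes 1 was called higher and 1 lower, beside 0.874% and 1.44% of all measured genes. *Per2* was higher with 3.92 FPKM in wild-type hearts and 8.67 FPKM in *Tug1*-/- hearts (1.13). *Arntl* was lower with 2.4 FPKM in wild-type hearts and 1.57 FPKM in *Tug1*-/- hearts (−0.59), a call lost with 1 FPKM added. *Clock* (−0.025), *Per3* (0.10), *Cry2* (0.075) and the repressor *Nr1d1* (−0.13) were within 1.5 times, and the median was 0.10. Of 10 measured output genes 1 was called higher and none lower, beside 0.874% and 1.44% of all measured genes. This was *Gm129*, which encodes a repressor of the loop also named Ciart, with 10.7 FPKM in wild-type hearts and 16.7 FPKM in *Tug1*-/- hearts (0.64). *Dbp*, among the most rhythmic of output genes, had 52.5 FPKM in wild-type hearts and 51 FPKM in *Tug1*-/- hearts (−0.042), and *Klf15* had a log2 change of 0.53. The E-box CACGTG was in windows of 2 of 11 core genes and 6 of 10 output genes with a window, and in 8.09% of all genes. The *Gm129* window holds 3, of which that at chr3:95882269-95882298 (build GRCm38.p6, minus strand, 58 to 53 bases before the start) is shown in capitals because *Gm129* was called.
Gm129: cgcagggggaggCACGTGcagaaccgcacg
The time of day at which each heart was taken is not given in the labels, and its part in these values was not tested.

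Heat shock genes encode chaperones, which fold other proteins, and their co-chaperones. Of 17 measured members 4 were called higher, beside 0.874% of all measured genes, and 13 did not pass 1.5 times. All 17 had log2 changes above 0, beside 58.6% of all measured genes, and the median was 0.34. *Hsph1*, a nucleotide exchange factor for the Hspa chaperones, had 13.9 FPKM in wild-type hearts and 28.8 FPKM in *Tug1*-/- hearts (1.04). The co-chaperone *Dnaja1* had 59.5 FPKM in wild-type hearts and 96.6 FPKM in *Tug1*-/- hearts (0.70). The inducible chaperones *Hspa1a* and *Hspa1b* are near-identical copies and are best read together, at 3.75 and 6.99 FPKM as a sum (0.88), with *Hspa1a* alone not called when 1 FPKM was added. More abundant members stayed within 1.5 times, such as *Hspa8* with 421 FPKM in wild-type hearts and 545 FPKM in *Tug1*-/- hearts (0.37), *Hsp90ab1* (0.32) and *Cryab* (0.24). *Hspa5*, the chaperone of the endoplasmic reticulum, had 216 and 219 FPKM (0.016).

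The heat shock element, searched on either strand as GAA, TTC and GAA with 2 bases of any kind between neighbors, was in windows of 4 of 13 heat shock genes with a window (*Hsph1*, *Hspe1*, *Hspd1* and *Chordc1*) and in 0.662% of all genes. That of *Hsph1* is shown as the only one in a called gene, at chr5:149636280-149636308 on the minus strand of GRCm38.p6, 16 to 28 bases after a start, with the element in capitals.
Hsph1: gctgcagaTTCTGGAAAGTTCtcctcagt
*Hspe1* and *Hspd1*, whose log2 changes were 0.12 and 0.15, hold the element and were not called, and the windows of *Dnaja1*, *Hspa1a* and *Hspa1b* do not hold these letters.

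Immediate early genes, which are switched on within minutes of a stimulus, split in direction. Of 25 measured members 4 were called lower and 2 higher, beside 1.44% and 0.874% of all measured genes, and the median was −0.087. The lower calls were transcription factors. *Fos* had 11 FPKM in wild-type hearts and 4.33 FPKM in *Tug1*-/- hearts (−1.32), *Egr1* had 16.5 FPKM in wild-type hearts and 6.4 FPKM in *Tug1*-/- hearts (−1.35), and the orphan receptors *Nr4a1* and *Nr4a2* had 27.2 and 17.4 FPKM (−0.64) and 1.95 and 0.716 FPKM (−1.33). The higher calls were *Ctgf*, named above, and the stress gene *Gadd45b* with 3.67 and 5.73 FPKM (0.63), a call lost with 1 FPKM added. *Jun* (−0.40), *Btg2* (−0.42), the phosphatase *Dusp1* (−0.28), *Klf2* (−0.087) and *Myc* (0.056) were within 1.5 times. The cyclic AMP response element TGACGTCA was in windows of 3 of 23 genes of the list (*Dusp1*, *Btg2* and *Maff*) and in 2.03% of all genes, and none of the called members was among them, *Ctgf* and *Egr1* having no window.

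**Figure D3:**
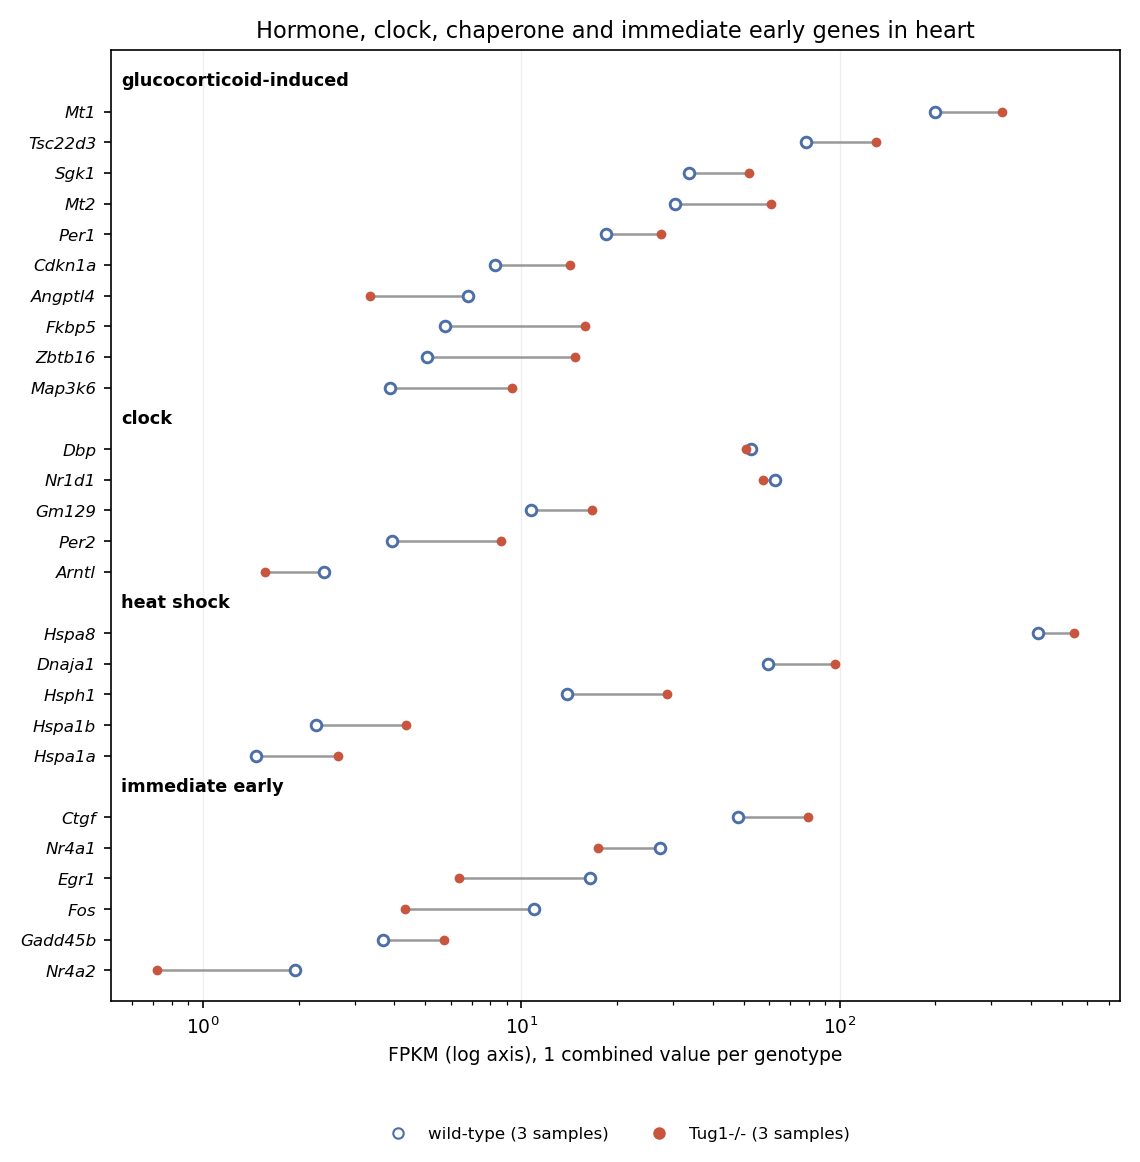
FPKM on a log axis of glucocorticoid-induced, clock, heat shock and immediate early genes in wild-type (open blue) and *Tug1*-/- (red) hearts, 1 combined value per genotype from 3 samples each. The *Tug1*-/- value lies to the right for every glucocorticoid-induced gene drawn except *Angptl4* and for every heat shock gene drawn, and to the left for *Fos*, *Egr1*, *Nr4a1* and *Nr4a2*.

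The remaining lists are given together. Of 12 measured acute phase and complement genes 3 were called lower and none higher, beside 1.44% and 0.874% of all measured genes, with a median of −0.13. These were the hemoglobin-binding plasma protein *Hp* (−0.96), *Orm1* (−0.79) and the cytokine *Il1b* with 3.77 FPKM in wild-type hearts and 1.65 FPKM in *Tug1*-/- hearts (−1.14). *Orm1* had passed the filter through wild-type alone, and its call was lost with 1 FPKM added. *Retnla*, a secreted protein of fat and immune cells picked after its values were seen, had 43 FPKM in wild-type hearts and 21.6 FPKM in *Tug1*-/- hearts. Of 21 measured interferon-stimulated genes only *Oas2* was called, as higher (0.59), beside 0.874% of all measured genes. That call was lost with 1 FPKM added or with changes centred on the median of all genes. None of 13 antigen presentation genes, 21 measured matrix genes, 14 measured sterol synthesis genes, 9 measured insulin-like growth factor genes and 3 measured cell cycle genes was called. Their medians were −0.024, −0.05, −0.14, −0.086 and 0.35. Of 13 measured selenoprotein genes only *Selm* was called, as higher, beside 0.874% of all measured genes. *Selm* is also a neighbor of *Tug1*. As a check of the labelled sex, the 4 Y-linked genes had log2 changes between −0.22 and −0.011, and *Xist* was at or under 0.0502 FPKM in both genotypes.

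In 13 of the 34 lists no member was called. The lists held 23 of the 111 higher and 37 of the 183 lower calls, so most called genes belong to no list.

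**Figure D4:**
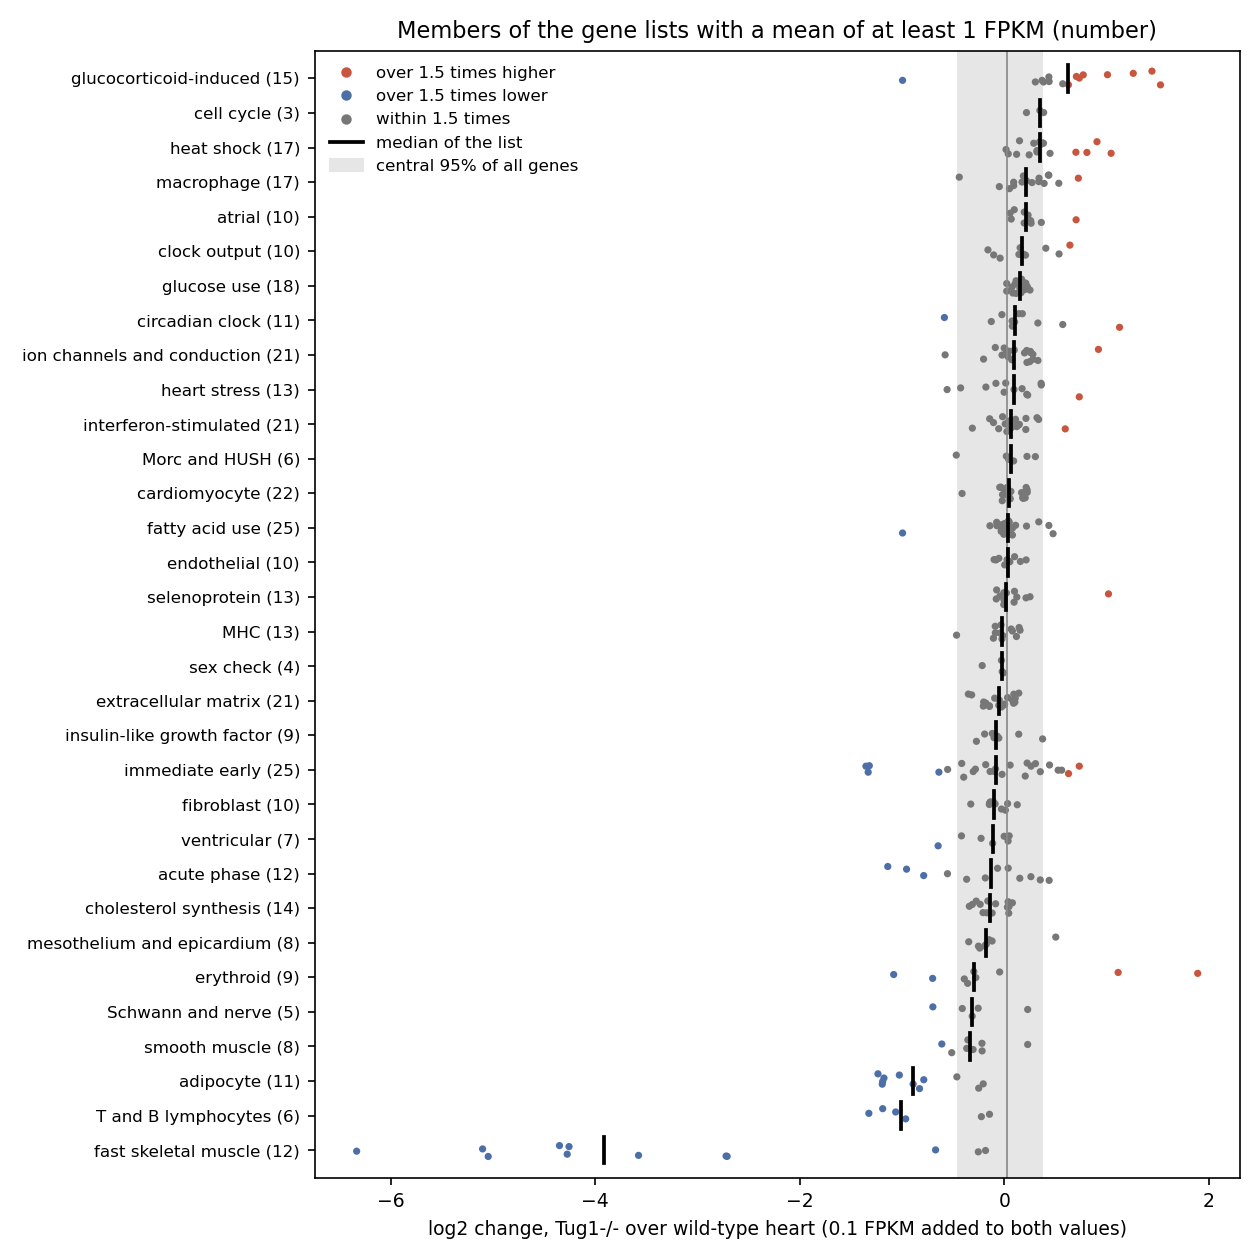
Each point is a list member with a mean of at least 1 FPKM, placed by its log2 change in *Tug1*-/- over wild-type heart, with called genes in colour and the list median as a black bar; the lung list and the liver and pancreas list, with 1 measured gene each, are left out. The grey band holds the central 95% of single genes and is no reference for a median. Called genes lie to the left in the fast skeletal muscle, lymphocyte and adipocyte lists, and all but *Angptl4* to the right in the glucocorticoid list.

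Genes near *Tug1* were taken from GENCODE vM21 on GRCm38. Besides *Tug1*, 48 genes of the table start within 1 Mb of its start, 29 were measured in heart, 7 were called higher and 1 lower, and their median log2 change was 0.16. The shares called over all measured genes were 0.874% and 1.44%. In order from *Tug1* toward lower coordinates, which is its downstream side, the genes called higher were the smooth muscle cytoskeleton gene *Smtn* (109 kb away, 76.5 and 170.3 FPKM), *Gm11946* (119.5 kb, 1.19 and 1.95 FPKM), the selenoprotein gene *Selm* (135 kb, 61 and 124 FPKM), the inositol phosphatase gene *Inpp5j* (145 kb, 6.56 and 15 FPKM), and then *8430429K09Rik* and the ubiquitin ligase gene *Rnf185*, which start back to back 197 kb away, with 1.3 and 2.2 FPKM and 9.54 and 19.6 FPKM. The next measured gene beyond them, *Limk2* (240.5 kb), had a log2 change of 0.10. *Gm11946* lies within *Smtn* on the other strand, so their reads cannot be told apart without strand, and the calls of *Gm11946* and *8430429K09Rik* were lost with 1 FPKM added.

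On the other side the oxysterol-binding protein gene *Osbp2* (214 kb) was called lower with 9.68 FPKM in wild-type hearts and 1.74 FPKM in *Tug1*-/- hearts, and the next measured gene, the phosphatase *Dusp18* (246 kb), had a log2 change of 0.17. *Gm11032*, near the edge of the window at 970.4 kb, was called higher with 65.4 FPKM in wild-type hearts and 244 FPKM in *Tug1*-/- hearts (1.9). The table gives it and *Gm11961*, on the other strand, the same stretch of chromosome 11 in mm10, from 4620067 to 4630011. In GENCODE vM21 *Gm11032* runs from 4620067 to 4621698 and *Gm11961* from 4620275 to 4630011, so reads of their overlap cannot be told apart. The log2 change of *Gm11032* was −0.66 in liver, −0.79 in spleen, −0.033 in prostate, −0.20 in eyes and 0.35 in testes. In none of these did it come near the 1.9 of heart. *Osbp2* was measured in 3 other tissues, at 1.32 in prostate, 0.27 in eyes and −0.24 in testes, against −2.41 in heart. By its own calls the study reports *Rnf185*, *Selm* and *8430429K09Rik* as higher in most of the knockout tissues it examined. Their values outside heart are not given here.

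The leading genes of the heart were set beside their values in the other 6 tissues of the series, liver, spleen, prostate, eyes, mouse embryonic fibroblasts (MEFs, cultured connective tissue cells) and testes. The labels do not say which tissues came from the same mice, so the tissues may not be independent, and no difference between them was tested. The median log2 change of the glucocorticoid-induced list was 0.63 in heart, 0.72 in liver, 0.49 in spleen, 0.46 in prostate, 0.39 in eyes, 0.11 in testes and 0.007 in MEFs. That of the heat shock list was 0.34 in heart, 0.45 in liver, 0.52 in spleen, 0.41 in prostate, 0.21 in eyes, 0.0075 in testes and 0.034 in MEFs. The medians over all measured genes lay between −0.06 (testes) and 0.028 (heart) in these tissues. Most members of the heat shock list were not called in heart, and no spread stands behind the medians.

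*Fkbp5* had a log2 change of 1.09 in liver, 1.04 in spleen and 0.83 in prostate, against 1.44 in heart, and of 0.28 in MEFs. *Hsph1* had 1.22, 1.53 and 1.06 in the same 3 tissues. *Fos* was lower in heart (−1.32), spleen (−1.06) and liver (−0.60), and within 1.5 times in prostate (−0.38), eyes (−0.32) and MEFs (−0.16). *Angptl4* had values above 0 in liver (0.48), prostate (0.62), eyes (0.45) and testes (0.92), and −1.0 in heart. *Cd163* was higher in heart (0.72), spleen (0.69), prostate (1.3) and eyes (1.09), and 0.49 in liver.

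The markers of other cell types had other directions in some tissues. The adipocyte list had a median of 1.54 in eyes and 1.89 in prostate, against −0.89 in heart, as a description of the 10, 8 and 11 members measured there. The summed level of the fast skeletal muscle list went from 3517 FPKM in wild-type to 6198 FPKM in *Tug1*-/- eyes, and from 242 to 107 FPKM in heart. The globin *Hbb-bt* had 1.78 in eyes and *Hbb-bs* 1.62, so there the copies moved alike, unlike in heart. *Rps4y2* was above 0 in liver (2.31), spleen (3.67), prostate (3.64), eyes (1.13) and MEFs (1.21) as in heart, and near 0 in testes (0.068). Of the predicted genes listed at 0 in *Tug1*-/- hearts, *Gm21836* went from 0 to 940.3 FPKM in eyes and from 1383 to 0 FPKM in liver, and its values cannot be interpreted.

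**Figure D5:**
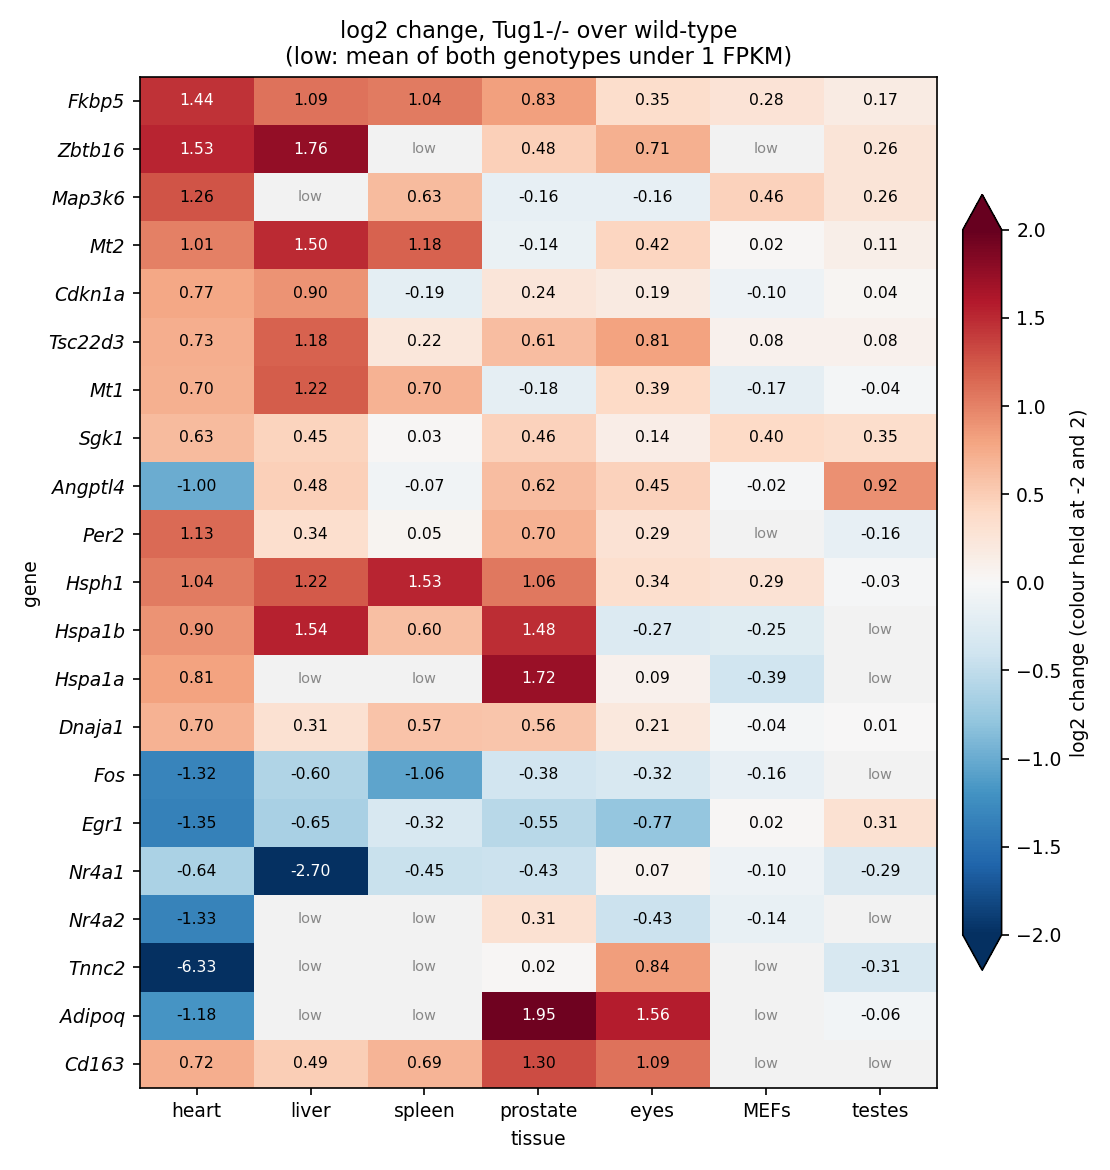
log2 change in *Tug1*-/- over wild-type of 21 genes (rows) in the 7 tissues (columns), from 1 combined value per genotype and tissue, in colour and as a number; cells marked low have a mean of under 1 FPKM. *Fkbp5* is above 0 in all 7 tissues and *Hsph1* in all but testes, while *Tnnc2* and *Adipoq* are below 0 in heart and above 0 in eyes.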

How the data were processed

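Polyadenylated RNA had been made into libraries with the TruSeq RNA Sample Preparation Kit v2. The submitters' processing notes name CASAVA 1.8.2, TopHat2, Cuffdiff and mm10. The values used are FPKM in the authors' deposited table, 1 per gene, tissue and genotype, in the layout of a Cuffdiff comparison; the header does not name the unit. The study's methods describe another route, from counts, for its own calls. The table's fold change, statistic, p, q and call columns are the authors' own comparisons and were not used. Brain rows were not analysed here, and values of some list members are not reported here.

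Changes were computed as log2((knockout + 0.1)/(wild-type + 0.1)), for genes with a mean of at least 1 FPKM, and called past 1.5 times. Named genes were *Tug1*, lacZ, heart muscle markers, called neighbors within 1 Mb, the 12 largest rises and falls at a mean of at least 5 FPKM, and called members and up to 4 others of each of 34 lists. Any other gene named was picked after its values were seen. Members and lists were chosen with earlier results of these data known. Genes near *Tug1* came from GENCODE vM21 (GRCm38), promoters from RefSeq (GRCm38.p6). Alternatives were pseudocounts of 1 and 0.01, a minimum of 5 FPKM, no minimum, centring on the median, a limit of 2 times and completed rows only. The steps were tested on simulated data. Python 3.11.15, numpy 2.4.6, pandas 2.3.3 and matplotlib 3.10.9 were used.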

Additional observations from a re-analysis of the deposited data

How the results depend on the processing

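The counts of called genes, 111 higher and 183 lower, moved with the filter and the scale. They were 67 and 95 with a pseudocount of 1, 68 and 51 with a mean of at least 5 FPKM, 305 and 746 with no filter on low values, and 28 and 61 with a limit of 2 times. A pseudocount of 0.01 (119 and 203), centring on the median of all genes (98 and 211) and completed rows only (106 and 177) left both within 1.5 times. The higher calls were 37.8% of all calls, 57.1% at a mean of at least 5 FPKM and 29.0% with no filter.

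With a pseudocount of 1, 12 of the 81 called named genes no longer passed 1.5 times (*8430429K09Rik*, *Adrb3*, *Arntl*, *Casq1*, *Cnn1*, *Gadd45b*, *Gm11946*, *Hspa1a*, *Irx5*, *Oas2*, *Orm1* and *S100b*), and with centring *Oas2* no longer did while *S100a8* then did. A minimum of 5 FPKM left 189 of 224 named genes. List medians moved by under 0.1 in log2 except 4 with a pseudocount of 1, 2 with a pseudocount of 0.01, 6 with a minimum of 5 FPKM and 4 with no filter.

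No paired analysis was possible because the table holds 1 combined value per genotype, and no sample was left out in turn for the same reason.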
